A study of Mus musculus with 8 samples.

Results

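The mitochondrial ribosomal protein genes were described at their promoters in 1 chromatin immunoprecipitation of Flag-tagged HoxB4. The members were all genes whose symbol in the array annotation begins with Mrpl or Mrps followed by a digit. There were 72 of 16908 genes, and all 72 still carry an Mrpl or Mrps symbol in RefSeq. By symbol, 43 are named for the large subunit (Mrpl) and 29 for the small subunit (Mrps). The symbols were not checked against the subunit that holds each protein. The cells were c-Kit+ hematopoietic progenitors differentiated from the mouse ES cell line B6N-22UTR, cultured on OP9 stroma, transduced with a retrovirus for 3xFLAG-tagged HoxB4 and collected on day 12 of the co-culture. HoxB4 was therefore an overexpressed, tagged protein, not the cells' own. The precipitated DNA (Flag-IP, Cy5) and input DNA (Cy3) were amplified with T7 RNA polymerase and hybridised together on 2 Agilent promoter arrays. The 2 arrays carry different probes, so each promoter was measured on 1 array, without a replicate. A Flag-IP from cells without the tag was not analysed here. HoxB4-dependent expression of the members was not analysed here either, because the expression probe sets used here carry no gene names.

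Mitochondrial ribosomes translate the few proteins encoded by mitochondrial DNA, all of them subunits of the respiratory chain and ATP synthase. Their RNA comes from the mitochondrial genome, but every one of their proteins is encoded in the nucleus, made in the cytosol and imported. Promoters of such nuclear genes are known for sites of NRF1, of ETS factors such as GABP, and of YY1. HoxB4 is a homeodomain factor that expands hematopoietic stem and progenitor cells when overexpressed.

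Each value below is log2 of Flag-IP over input, centred on the median of its array, so that 0 is the array's typical probe. The start mean is the mean of the probes within 500 bp of the gene start. The highest window is the highest median of 3 neighbouring probes anywhere in the gene's tiled region. Errors are the SD over the probes of 1 start, which is a spread along the DNA and not between samples. The arrays held 237195 and 237185 probes, of which 95.3% on each were well above background in both channels. The members had 1725 probes, 8 to 65 each with a median of 22. A start mean rested on 1 to 11 probes (median 4, fewer than 4 in 19 members), and 100% of these start probes were well above background.

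The sequences of 6 promoters are shown because they include the 3 members with the highest windows, a promoter between a pair of members that start close together, and members with low values and repeated NRF1 motifs. Each covers 250 bases before to 50 after the start, taken from RefSeq on GRCm38.p6 and written in the direction of the gene. Capitals mark matches on either strand to the ETS core CCGGAAG, to the NRF1 motif GCGCANGCG, to the YY1 motif AAGATGGC or to the homeodomain core TAATTA. Adjoining matches merge into 1 run of capitals. The sources used here name no build for the array's own coordinates, so probes are placed only by their distance from the start in the array annotation.
Mrpl55, chr11:59202236-59202535, strand plus: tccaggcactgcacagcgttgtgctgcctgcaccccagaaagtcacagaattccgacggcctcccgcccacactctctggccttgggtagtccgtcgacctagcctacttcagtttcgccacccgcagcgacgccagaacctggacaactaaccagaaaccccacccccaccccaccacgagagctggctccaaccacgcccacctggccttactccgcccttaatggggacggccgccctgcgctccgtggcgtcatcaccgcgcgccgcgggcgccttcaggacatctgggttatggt
Mrpl18, chr17:12916042-12916341, strand minus: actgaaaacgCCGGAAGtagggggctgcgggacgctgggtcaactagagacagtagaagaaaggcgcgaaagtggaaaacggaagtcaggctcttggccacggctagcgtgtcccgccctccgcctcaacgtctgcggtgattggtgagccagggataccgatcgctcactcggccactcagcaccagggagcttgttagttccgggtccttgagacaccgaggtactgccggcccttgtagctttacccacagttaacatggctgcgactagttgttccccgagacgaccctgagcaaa
Mrpl1, chr5:96209865-96210164, strand plus: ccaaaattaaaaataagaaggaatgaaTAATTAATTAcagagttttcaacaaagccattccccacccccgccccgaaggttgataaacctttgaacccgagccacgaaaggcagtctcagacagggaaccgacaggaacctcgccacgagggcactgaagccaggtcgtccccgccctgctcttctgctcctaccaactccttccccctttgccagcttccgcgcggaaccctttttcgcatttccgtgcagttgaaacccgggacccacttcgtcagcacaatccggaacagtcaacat
Mrps11, chr7:78782881-78783180, strand plus: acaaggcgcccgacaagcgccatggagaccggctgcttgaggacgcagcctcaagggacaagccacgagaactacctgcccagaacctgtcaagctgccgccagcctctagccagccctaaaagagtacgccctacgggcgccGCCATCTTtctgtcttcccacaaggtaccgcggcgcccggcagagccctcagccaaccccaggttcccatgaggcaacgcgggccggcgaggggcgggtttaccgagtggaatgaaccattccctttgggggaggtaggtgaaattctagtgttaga
Mrpl45, chr11:97315466-97315765, strand plus: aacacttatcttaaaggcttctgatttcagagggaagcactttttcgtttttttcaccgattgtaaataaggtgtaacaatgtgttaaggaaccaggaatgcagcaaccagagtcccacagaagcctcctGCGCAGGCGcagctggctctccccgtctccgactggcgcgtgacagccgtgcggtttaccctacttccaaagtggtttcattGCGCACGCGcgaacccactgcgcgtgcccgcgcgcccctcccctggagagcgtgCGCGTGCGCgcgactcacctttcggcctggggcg
Mrpl32, chr13:14612988-14613287, strand minus: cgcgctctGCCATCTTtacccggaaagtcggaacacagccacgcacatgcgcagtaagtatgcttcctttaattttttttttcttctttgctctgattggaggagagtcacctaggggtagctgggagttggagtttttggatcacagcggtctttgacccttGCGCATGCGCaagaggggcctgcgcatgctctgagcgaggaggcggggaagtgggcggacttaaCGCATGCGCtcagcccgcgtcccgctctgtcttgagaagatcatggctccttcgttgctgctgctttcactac
The promoters of Mrpl55, Mrpl18 and Mrpl1, the genes with the highest windows, held no NRF1 match. Mrpl55 held none of the 4 motifs, Mrpl18 held 1 ETS core and Mrpl1 held 2 homeodomain cores that overlap. The promoters of Mrpl45 and Mrpl32, with start means near 0, held 3 NRF1 matches each, and were chosen for them. In Mrpl32, 2 of the 3 overlap on opposite strands in 1 run of capitals. The contrast between these promoters was therefore set by the choice. Of the 63 members with a promoter, 49 held no NRF1 match. Mrpl17, with 2 matches, had a start mean of 1.21, while Mrps33 and Mrps27, with start means near 0, had none.

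As a group, the Mrp genes showed Flag-IP signal at their starts above the typical gene. The median start mean was 0.82, against 0.32 over the 16236 genes with one, and the median member stood at percentile 81.8 of all genes. A start mean of at least 0.5 was seen in 51 of 72 members (70.8%), against a background of 36.5% of all genes. A start mean of at least 1 was seen in 24 members (33.3%), against 11.5%. Below 0 lay 6 members, against 26.8% of genes, and 47 of 72 had every start probe above 0, against 35.6%. With 1 array per promoter there is no test, and these shares describe the 2 hybridisations.

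By highest window the members stood less far above other genes than by start mean. A highest window of at least 1 was reached by 43 members (59.7%), against a background of 41.7%, and one of at least 2 by 3 members, against 2.89% of genes. The median highest window was 1.16, against 0.89 in all genes, and the median member stood at percentile 69.5. A lowest window at or below -1 was present in 29 members (40.3%), against 54.1% of genes. However, members also had fewer windows, a median of 19.5 against 25. Over all genes the highest window rose with the number of windows (Pearson r = 0.24). The part of window number in the highest and lowest windows of the members was not tested. How far these differences stand out depends on how bright probes are treated. Start probes of members had a median input signal of 10.29 on the log2 scale, against 10.02 in all genes. With the trend of the ratio on probe brightness removed, the median start mean was 0.44 in members and 0.19 in all genes, 35 of 72 members reached 0.5 against 24.5% of genes, and the median percentiles were 71.4 by start mean and 54.8 by highest window.

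**Figure D1:**
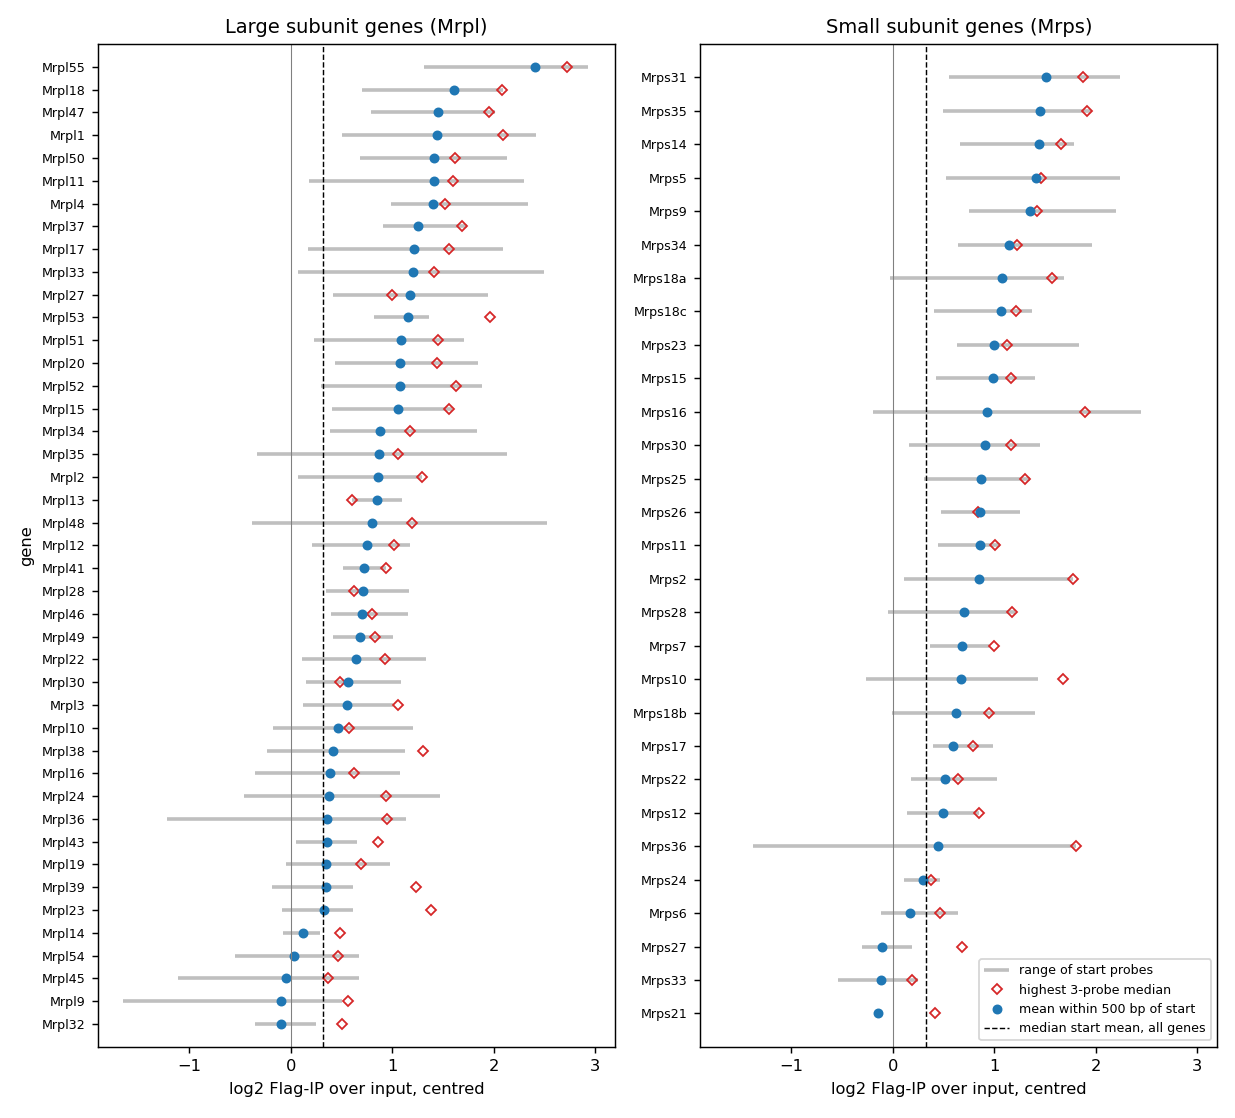
Every mitochondrial ribosomal protein gene (rows), with the mean log2 Flag-IP over input within 500 bp of the start (filled circles), the range of those probes (grey bars) and the highest 3-probe median of the gene (open diamonds); the dashed line is the median start mean of all genes, 0.32. Most Mrpl and most Mrps genes lie to the right of the line, Mrpl55 stands highest at 2.40, and 6 genes lie below 0.

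Mrpl55, a large subunit protein known only from animals, had the highest start mean and the highest window of the family. Its start probes read 2.64 at -346 bp, 2.72 at -187 bp, 2.93 at 21 bp and 1.32 at 319 bp, giving a start mean of 2.40 ± 0.73 (SD, n = 4 probes). The signal stayed at 1.23 to 1.43 further upstream, to -802 bp, and reached -0.91 at 729 bp inside the gene. Its probes more than 2000 bp upstream averaged -0.32.

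Mrpl18, the homologue of the protein that binds 5S rRNA in other ribosomes, came next with a start mean of 1.61 ± 0.63 (SD, n = 5 probes). Its probes read 1.22, 1.97, 2.08, 0.70 and 2.10 from -291 to 483 bp, so 1 probe inside the peak was low. Its start lies 238 bp from that of Tcp1, a subunit of the cytosolic chaperonin, transcribed the other way. The same probes therefore cover both starts, and the signal cannot be given to either gene.

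Mrpl1, which forms the stalk beside the tRNA exit site, had the second highest window, 2.10, and a start mean of 1.44 ± 0.65 (SD, n = 7 probes). The highest probe, 2.42, lay 102 bp inside the gene. On the upstream side its probes read 1.16 to 1.60 from -148 to -375 bp.

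The members that followed by start mean lay close together. Mrps31 had a start mean of 1.51 ± 0.73 (SD, n = 4 probes) and Mrpl47, which sits near the exit of the peptide tunnel, 1.45 ± 0.54 (SD, n = 5 probes). Mrps35 had 1.45, Mrps14, a protein of the small subunit head, 1.44, Mrps5, which lies at the mRNA entry, 1.41, Mrpl50 1.41 and Mrpl11, a protein of the stalk base, 1.41. These differences are smaller than the median SD of the probes of 1 start, 0.53, so the order within this group is not resolved.

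Ranked by highest window, Mrpl53 (1.96), Mrps16 (1.89), Mrps36 (1.81) and Mrps2 (1.77) joined the first 10. In Mrpl53 the window lay 1927 bp inside the gene and not at the start, where the 3 probes averaged 1.15. In Mrps16 it lay at -804 bp, and its probes within 500 bp ranged from -0.19 to 2.45. Mrps36, now also known as a subunit of the 2-oxoglutarate dehydrogenase complex, had the widest spread of any member. Its start probes read -1.38 at -205 bp, 1.81 at -31 bp and 0.89 at 199 bp, so its start mean of 0.44 ± 1.64 (SD, n = 3 probes) is smaller than its spread.

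At the other end, 6 members had start means just below 0. The sign of these values rests on the centring: all 6 were positive, 0.16 to 0.28, when centred on upstream probes. With normexp background correction Mrpl9 read 0.61, Mrps33 0.27 and Mrpl45 0.01, while the other 3 stayed below 0. With the brightness trend removed Mrpl32 and Mrps27 read 0.07 each and Mrpl45 0.0008, and the others stayed below 0. With starts of 250 bp only Mrpl45 (0.33) and Mrpl9 (0.05) were above 0. Mrps21 read -0.14 from its single start probe. Mrps33 averaged -0.12 ± 0.37 (SD, n = 5 probes), and all 5 probes lay between -0.54 and 0.25. Mrps27, a pentatricopeptide protein that binds RNA, averaged -0.10 ± 0.26 (SD, n = 3 probes). Mrpl32, a large subunit protein that is matured by a protease of the inner membrane, averaged -0.10 ± 0.31 (SD, n = 3 probes). Mrpl9 averaged -0.10 ± 0.74 (SD, n = 7 probes), but it held a single low probe, -1.65 at -464 bp, and its other probes lay between -0.13 and 0.51. Mrpl45, which ties the ribosome to the inner membrane, averaged -0.05 ± 0.55 (SD, n = 7 probes). The probes of Mrpl55 and Mrpl18 all lay above those of Mrps33 and Mrpl32, whereas the lowest probe of Mrpl1, 0.50, lay below the highest of Mrpl45, 0.67.

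**Figure D2:**
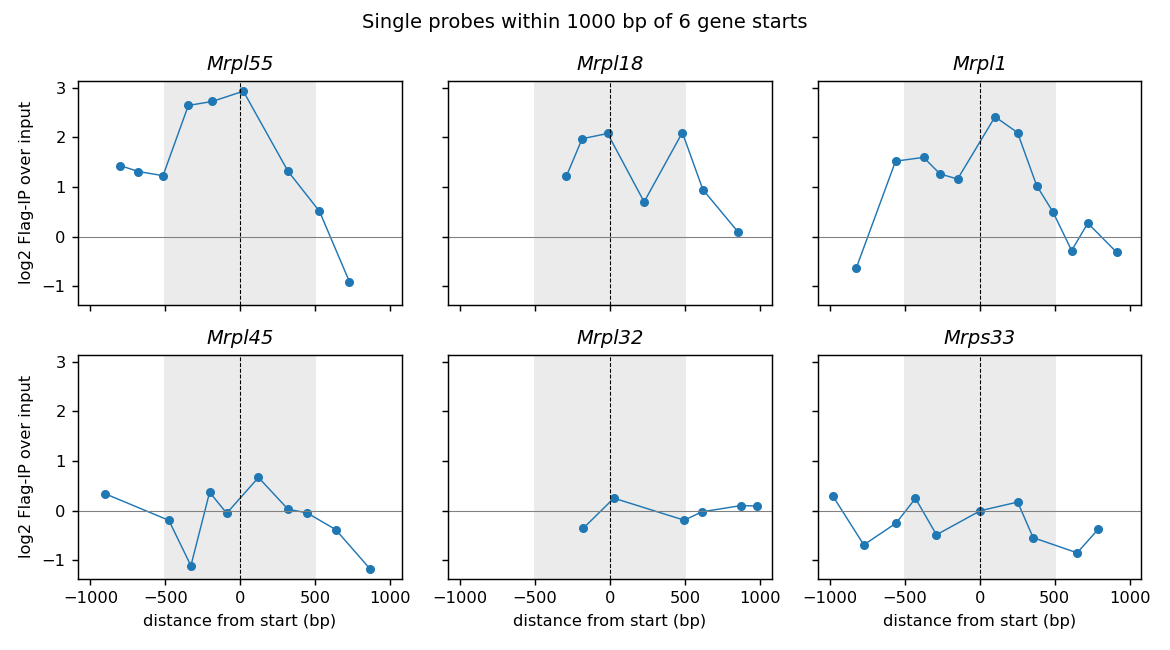
Single probes within 1000 bp of the start of 3 genes with the highest windows (top) and 3 with start means below 0 (bottom); the x axis is the distance from the start in bp, the y axis log2 Flag-IP over input, and the grey band marks the 500 bp on either side used for the start mean. Mrpl55, Mrpl18 and Mrpl1 reach 2.93, 2.10 and 2.42, while no probe of the lower genes exceeds 0.67.

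By highest window the lowest 6 were Mrps33 (0.19), Mrpl45 (0.37), Mrps24 (0.38), Mrps21 (0.42), Mrps6 (0.46) and Mrpl54 (0.46). The 5 probes at the start of Mrps24 ran from 0.11 to 0.46, the most even of these. For some members both measures gave different pictures. Mrpl13 stood at percentile 83.0 by start mean and 29.6 by highest window, having 2 start probes of 1.10 and 0.61 and then -0.46 at 632 bp. Mrpl28, Mrpl30 and Mrps26 also ranked higher by start mean, by 45.9, 46.0 and 37.5 percentile points, and Mrps36 lower by 35.7. Each of these rested on 2 or 3 start probes.

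Further members were named for their roles. Mrpl12, the stalk protein that also binds the mitochondrial RNA polymerase, had a start mean of 0.75 ± 0.38 (SD, n = 5 probes). Mrpl3, which reaches the peptidyl transferase centre, had 0.55 ± 0.38 (SD, n = 6 probes), with its highest window at -4833 bp. Mrps12, the decoding centre protein, had 0.49 ± 0.50 (SD, n = 2 probes), and its start lies 147 bp from that of Sars2, the mitochondrial seryl-tRNA synthetase. Mrps16 had 0.93 ± 0.96 (SD, n = 5 probes) and Mrps22 0.52 ± 0.35 (SD, n = 5 probes); mutations of both human genes cause respiratory chain deficiency. Mrps7, which binds the ribosomal RNA of the small subunit head, had 0.68 ± 0.29 (SD, n = 3 probes). The 3 relatives of bacterial S18 overlapped in their probe ranges, with start means of 1.08 ± 0.96 (SD, n = 3 probes) in Mrps18a, 1.07 ± 0.38 (SD, n = 5 probes) in Mrps18c and 0.63 ± 0.49 (SD, n = 6 probes) in Mrps18b.

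Genes named for the large subunit (Mrpl) and for the small subunit (Mrps) overlapped. This split follows the symbol alone. The median start mean was 0.75 in the 43 Mrpl genes and 0.86 in the 29 Mrps genes. A start mean of 0.5 was reached by 29 and 22 of them, against 36.5% of all genes. The order of the medians turned on array 1, where they were 1.06 and 0.86, and with starts of 250 bp (0.89 and 0.83). The 3 windows at or above 2 all belonged to Mrpl genes, against a background of 2.89% of all genes, but this split depended on the processing. With normexp background correction 4 Mrpl and 2 Mrps genes reached 2, against 4.40% of all genes. Centred on upstream probes 5 and 5 did, against 7.77%. By symbol number, 45 members were counted as having a bacterial counterpart and 27 as having none. Their median start means were 0.75 and 0.86. Single proteins were not checked for homology, so some may be misplaced, and the division was made after the values were seen. The difference went one way on array 1 (0.88 against 1.09) and the other on array 2 (0.67 against 0.48).

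The values were higher on one array than on the other. The 37 members on array 1 had a median start mean of 0.88 and the 35 on array 2 had 0.65, with 30 (81.1%) and 21 (60.0%) reaching 0.5. Over all genes the medians were 0.34 and 0.31, and 38.4% and 34.6% reached 0.5. By highest window the members of array 2 were not above all genes under every setting. Their median was 0.99 with normexp (percentile 48.8) and 0.81 with the brightness trend removed (percentile 49.8), against 1.01 and 0.81 over the genes of both arrays. Since the arrays hold different genes, array and gene set cannot be told apart.

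The signal was centred on the start. Mean probe values of the members went from -0.04 at 1000 to 2000 bp upstream to 0.67 at 250 to 500 bp, peaked at 1.00 (SD 0.64 over 101 probes) in the first 250 bp inside the gene, and were 0.16 at 500 to 1000 bp and -0.04 at 1000 to 2000 bp. Over all genes the same bin inside the start averaged 0.43. The highest window lay within 500 bp of the start in 44 of 72 members (61.1%), against 36.0% of all genes. This share was not compared at equal coverage. Members had a median of 19.5 windows against 25, and 45 of 72 had probes at least 2000 bp upstream, against 13874 of 16908 genes. In the 45 members with probes at least 2000 bp upstream, the start mean exceeded the upstream mean in 45, by 0.10 to 3.44 (median 0.85), against a background of 78.1% of genes and a median of 0.54. With the brightness trend removed it did so in 36 of 45, against 68.4% of genes.

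**Figure D3:**
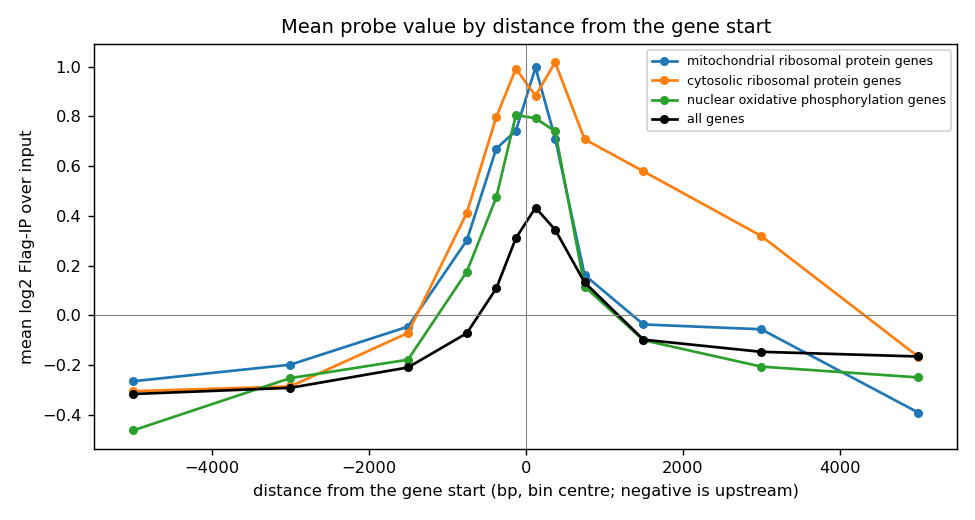
Mean log2 Flag-IP over input (y axis) of all probes in bins of distance from the gene start (x axis, in bp) for mitochondrial ribosomal protein genes, cytosolic ribosomal protein genes, nuclear oxidative phosphorylation genes and all genes. The mitochondrial ribosomal protein genes peak at 1.00 just inside the start and are at -0.04 by 1000 to 2000 bp, where cytosolic ribosomal protein genes are still at 0.58.

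Compared with the other ribosome, the median start mean was similar and the extent of the signal was not. A start mean of at least 0.5 was reached by 66 of 79 cytosolic ribosomal protein genes (83.5%), against 51 of 72 Mrp genes (70.8%). In the first 250 bp inside the gene the cytosolic genes averaged 0.88 and Mrp genes 1.00. From 250 to 500 bp inside they averaged 1.02 and 0.71. The 79 cytosolic ribosomal protein genes had a median start mean of 0.86, but a median highest window of 1.42, and 61 of them (77.2%) reached a window of 1 against 43 of 72 Mrp genes. Inside the gene their mean probe value was still 0.71 at 500 to 1000 bp, 0.58 at 1000 to 2000 bp and 0.32 at 2000 to 4000 bp, whereas Mrp genes read 0.16, -0.04 and -0.06. The 83 nuclear genes of oxidative phosphorylation, whose partners the mitochondrial ribosome makes, were closer in extent, with a median start mean of 0.73, a median highest window of 1.06 and -0.10 at 1000 to 2000 bp inside. By array, the start median of Mrp and cytosolic genes was 0.88 and 0.83 on array 1, and 0.65 and 0.90 on array 2.

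**Figure D4:**
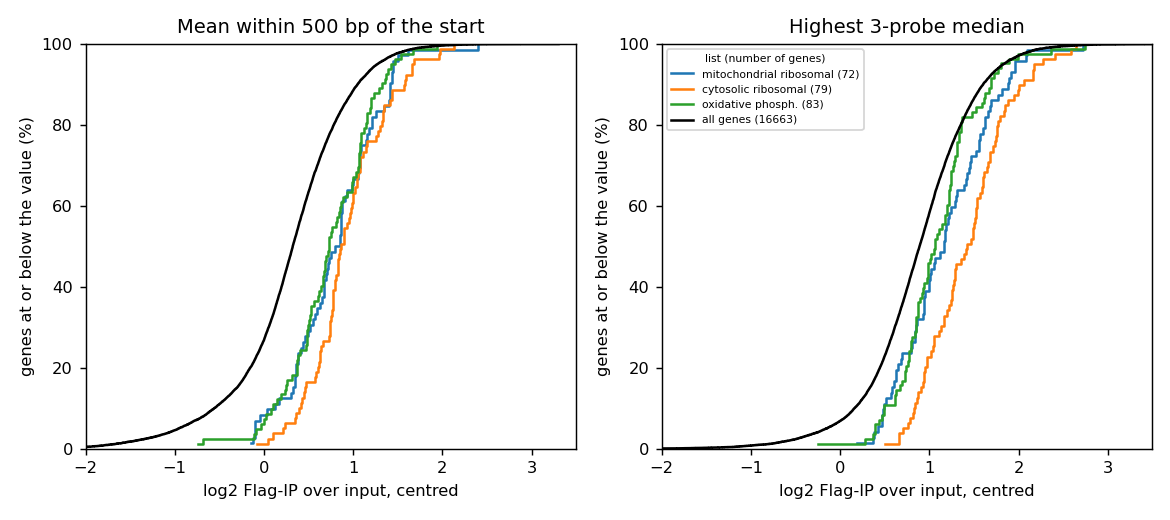
Cumulative share of genes (y axis, percent) at or below a given start mean (left) or highest 3-probe median (right), both log2 Flag-IP over input (x axis), for the mitochondrial ribosomal protein genes and 3 comparison lists. By start mean the 3 mitochondrial and ribosomal lists have close medians, 0.73 to 0.86, right of all genes at 0.32. By highest window the cytosolic ribosomal protein genes lie apart with a median of 1.42.

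Other genes of mitochondrial translation lay in the same range. All 6 further mitochondrial ribosomal proteins with start probes, named otherwise in the annotation, reached a start mean of 0.5, against 36.5% of all genes. They ran from 0.54 in Gadd45gip1 to 1.55 in Aurkaip1, on 3 to 6 start probes each. Ict1 (now Mrpl58), a peptide release factor built into the large subunit, had 0.75. The 18 mitochondrial aminoacyl-tRNA synthetases had a median of 0.68, the 17 ribosome assembly genes with start probes 0.72 and the 13 translation factor genes 0.54. Among the factors, Tufm, the elongation factor that brings aminoacyl-tRNA, had 1.61, while Mtif3, an initiation factor, had 0.03. Of 9 genes of mitochondrial transcription and DNA upkeep the median was 0.60, with 0.70 in Tfam, which packages and activates mitochondrial DNA, and -0.12 in Polrmt, its RNA polymerase.

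RefSeq promoters were found for 63 of the 72 members, 69 promoters in all. Both strands were searched for each motif. The ETS core occurred in 33.3% of member promoters, against 13.0% of promoters of genes with a start mean and 8.86% of all promoters of that length. The YY1 motif occurred in 15.9%, against 3.41% and 2.75%, and the NRF1 motif in 20.3%, against 10.0% and 6.25%. The GC-rich SP1 box GGGCGG was as frequent as elsewhere (52.2% against 51.9%), at a median GC content of 58.3% against 58.0%. The homeodomain core was found in 2.90% of member promoters, against 3.93% and 5.29%, in Mrpl1 and Mrpl35. The Hox-Pbx motif TGATTNAT was found in 1.45%, against 2.36% and 3.22%, in Mrpl33. These windows cover the promoter only, and a match is not a bound site.

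Members with an NRF1 motif had the lower start means. The 14 with a match had a median start mean of 0.52, from -0.14 in Mrps21 to 1.35 in Mrps9, and 7 of 14 reached 0.5, against 47.2% of all genes with the motif. The 49 without had a median of 0.87, and 38 reached 0.5 (77.6%, against 36.7% of all genes without it). Across all genes the order was the opposite, 0.46 with and 0.32 without the motif. Of the 6 members with negative start means, Mrpl45, Mrpl32, Mrpl9 and Mrps21 held the motif and Mrps33 and Mrps27 did not. Within array 1 the member medians were 0.71 with and 0.93 without, and within array 2 they were 0.40 and 0.68. The order also held with normexp background correction (0.59 and 1.07) and with the brightness trend removed (0.29 and 0.51). By highest window the medians were 0.71 with and 1.19 without the motif, but 0.84 and 0.87 once the brightness trend was removed. The ranges overlapped over most of their length. Members with the motif had a median input signal of 10.07 on the log2 scale and those without 10.42. Over all 72 members, input signal near the start and start mean had a Pearson r of -0.005 and a Spearman rho of 0.02. Over all genes r was 0.34. The part of brightness in the difference by NRF1 motif was not tested further. The motif comparison was one of 8 made, and it is a description without a p-value.

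Of the other motifs, ETS and YY1 gave smaller differences. The start mean median was 0.88 in the 23 with an ETS core and 0.72 in the 40 without. It was 0.68 in the 11 with a YY1 motif and 0.86 in the 52 without, and 0.28 and 0.51 with the brightness trend removed, as large a gap as for NRF1. Over all genes both motifs went with higher values, 0.62 against 0.29 for ETS and 0.57 against 0.33 for YY1. The member medians were 0.80 with and 0.80 without the SP1 box, 0.89 with and 0.68 without the sequence CCAAT, and 1.07 with (5 genes) and 0.74 without the E-box CACGTG. The 3 genes with a homeodomain or Hox-Pbx match, Mrpl1, Mrpl35 and Mrpl33, had start means of 1.44, 0.87 and 1.21, too few to compare. The correlation of GC content with start mean was near 0 among the members (Pearson r = -0.09, Spearman rho = -0.05, 63 genes), and above 0 over all genes (r = 0.38, rho = 0.27, 12798 genes). The points within an array share 1 hybridisation, and genes are not replicates.

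**Figure D5:**
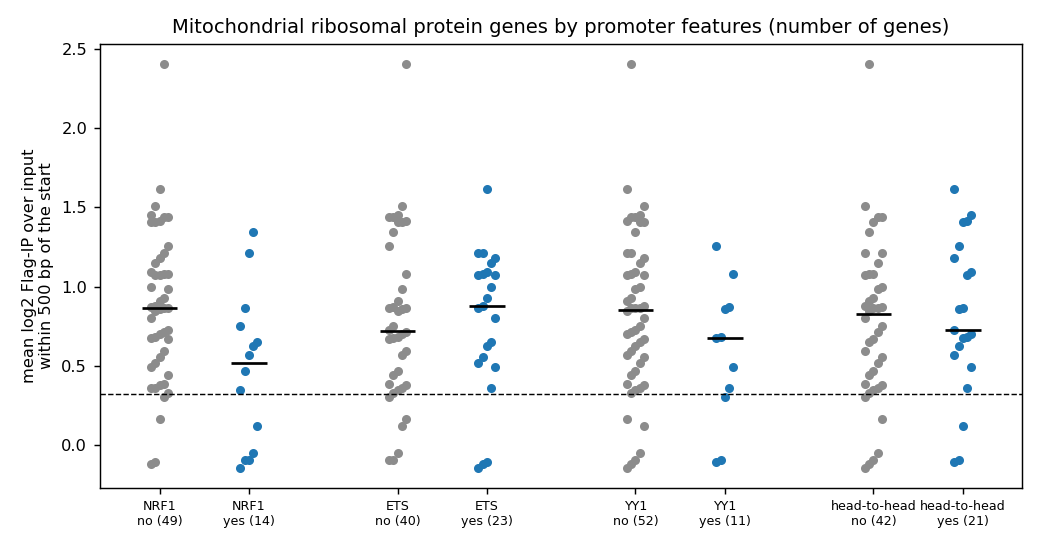
Start means (y axis, log2 Flag-IP over input within 500 bp) of the 63 mitochondrial ribosomal protein genes with a RefSeq promoter, split by whether the promoter holds an NRF1, ETS or YY1 motif and whether a coding gene starts head to head within 1000 bp (x axis, number of genes in brackets); points are genes, bars are medians and the dashed line is the median of all genes. The medians are 0.52 with and 0.87 without an NRF1 motif, with wide overlap.

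Many of these promoters lie close to the start of a second gene. A coding gene transcribed the other way started within 1000 bp of 21 of the 63 members (33.3%), against 9.79% of all genes with a promoter. Several of these partners act in mitochondria themselves: Mrpl47 starts 308 bp from Ndufb5, a subunit of complex I, Mrpl43 116 bp from Twnk, the mitochondrial DNA helicase, and Mrps12 147 bp from Sars2. Mrpl49 starts 192 bp from Fau, which encodes a cytosolic ribosomal protein. In RefSeq, Mrps11 and Mrpl46 start 42 bp apart, so both RefSeq starts lie in the sequence shown above for Mrps11. Its single YY1 motif lies outside the window counted for Mrpl46. The probes of Mrps11 read 0.45 at -101 bp and 1.05, 1.01 and 0.93 inside the gene. Those of Mrpl46 read 0.45, 0.40, 1.16 and 0.81 from -119 to 470 bp. The 0.45 is a single probe that the array annotation gives to both genes, upstream of each start. Its distances of -101 and -119 bp are from the annotation's own starts, which lie further apart than 42 bp. The highest probe of each lay inside the gene, at 59 bp and at 137 bp.

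Among the members, those with such a neighbour had neither clearly higher nor lower signal. The median start mean was 0.73 in the 21 with a head-to-head neighbour and 0.82 in the 42 without, but 1.01 and 0.98 with normexp and 0.64 and 0.53 with starts of 1000 bp. A start mean of 0.5 was reached by 16 of 21 (76.2%) and 29 of 42 (69.0%). Over all genes the medians were 0.72 with and 0.30 without, and 65.4% and 34.9% reached 0.5. Among the paired members the values ran from 1.61 in Mrpl18 to -0.10 in Mrps27, whose start lies 108 bp from that of Ptcd2. Mrpl32 lies 205 bp from Psma2, a proteasome subunit, and its 3 start probes read -0.35, 0.25 and -0.19.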

How the data were processed

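Flag-IP and input DNA were measured on 2 two-colour Agilent promoter arrays with different probes. The deposited intensity values are processed signals from Agilent's Feature Extraction 10.1.1.1. Per the file headers, that program took off the background and spatial gradients and applied a linear dye normalization. The deposited value tables hold the log10 ratio of red over green. Here log2 of the red over the green processed intensity had each array's median (0.06 and 0.07) taken off, after control spots and 19 and 38 outlier spots were left out. No spot was saturated. Windows were 3 probes with at most 1000 bp between neighbours. Gene symbols were those of the array annotation, updated through RefSeq by accession for 16289 genes, by symbol for 310 and by synonym for 178, while 131 were kept. Percentiles are among all genes with a value. Of the members, 71 matched by accession and 1 by symbol.

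No test was run, because each promoter has 1 array per probe set. The members and lists were chosen with earlier results of these data known. Members named were the 10 highest and 6 lowest by each measure, the 5 whose percentiles by start mean and highest window differed most, and a set named for their roles. Alternatives were normexp background correction (offset 50, limma 3.58.1 in R 4.3.3), removal of the brightness trend by loess (span 0.3), probes well above background, the deposited log10 table, windows of 5 probes, starts of 250 and 1000 bp, centring on upstream probes, single arrays, and leaving out shared starts. Window and start functions were tested on simulated data. The number of arrays limits the precision.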

Additional observations from a re-analysis of the deposited data

How the results depend on the processing

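The median start mean of the members stayed above that of all genes under normexp background correction (0.99 and 0.47), and also once the brightness trend was taken out (0.44 and 0.19). With that trend taken out, the median highest window became 0.87 against 0.81 in all genes, the median percentile 54.8 by highest window and 71.4 by start mean, and 1 member reached a window of 2 (1.09% of all genes). With normexp the median highest window was 1.30 (all genes 1.01) and 6 members reached 2 (4.40% of all genes). Centred on the mean of probes at least 2000 bp upstream (-0.30 and -0.32 on the arrays), the medians were 1.47 and 1.13 by highest window and start mean, and 10 members reached 2. All genes then had medians of 1.20 and 0.64, with 7.77% reaching 2, and the members' percentiles were 69.5 and 81.5. With windows of 5 probes the median highest window was 0.93 (all genes 0.69) and 1 member reached 2 (1.04% of all genes). With starts of 1000 bp the median start mean was 0.61 (all genes 0.23). Array 1 alone gave a median highest window of 1.30 at percentile 77.6, with 26 of 37 members reaching a window of 1, 1 reaching 2 and 30 a start mean of 0.5. Of all genes on array 1, 44.1% reached a window of 1, 3.26% one of 2 and 38.4% a start mean of 0.5. Array 2 alone gave medians of 1.00 and 0.65 at percentiles 58.3 and 73.0, with 17 of 35 members reaching a window of 1 and 21 a start mean of 0.5. Of all genes on array 2, 39.2% reached a window of 1 and 34.6% a start mean of 0.5. The deposited table, probes well above background, starts of 250 bp and leaving out shared starts moved no summary by more than 0.1 on the log2 scale, 5 percentile points or 1.5 times in a count. Of 112 start means of 16 named members under alternatives, 10 moved by more than the SD of their probes. The 16 under the deposited table and the 16 under probes well above background could not move, because the same ratios and start probes entered. Centring on upstream probes shifted all values of an array alike. No start mean of the 10 highest changed sign, whereas those of the 6 lowest did: all 6 were above 0 (0.16 to 0.28) when centred on upstream probes. No paired analysis was possible because each promoter was measured on 1 array. The probes of 1 start limit the precision, most where there are fewer than 4.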
